A study of Homo sapiens with 9 samples.

Results

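CTCFL, also called BORIS, is a zinc finger protein normally made in the testis and switched on again in many ovarian carcinomas. It is the paralog of CTCF, the general insulator protein, and the pair recognise closely related DNA sequences. The account here concerns genes that left their control level in the same direction when CTCFL was raised and when it was lowered. Such a response does not follow the dose of CTCFL.

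The measurements are poly(A) RNA sequencing counts from OVCAR3, an established line derived from a high-grade serous ovarian carcinoma, in 9 libraries of 3 groups. The 3 Control libraries came from cells given a plasmid that encodes LacZ, a bacterial enzyme, although their treatment label reads none. The 3 CTCFL-OE libraries came from cells transfected with a CTCFL expression plasmid of the same backbone. The 3 CTCFL-KD libraries came from cells in which CTCFL had been silenced with small interfering RNA in an earlier experiment, so that knockdown and any difference in handling cannot be told apart. Total counts ran from 14332622 to 24490080 per library.

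All 9 libraries of the series entered the comparison, in which the mean of CTCFL-OE and CTCFL-KD, each with equal weight, was set against Control. Members are the genes whose 6 altered libraries all lay above, or all below, all 3 Control libraries in CPM (counts scaled to library size, with TMM factors), and which were also called in the pooled contrast. Called means a log2 fold change beyond 1 in size and an adjusted p under 0.05. Of 17794 genes tested, 1208 (6.79%) were called higher and 552 (3.1%) lower. Separately, 1502 genes (8.44%) had all altered libraries above Control and 2130 (12%) had them below. Both conditions together gave 672 rising and 354 falling members, 1026 in all. These counts restate the rule and carry no test. The called counts depend on the Control libraries: with Control replicate 1, 2 or 3 left out the number called higher was 636, 654 or 610. CTCFL-OE replicate 1 lay nearest to Control, and without it 1106 rising members were found, and 2635 genes lay above and 3209 below Control in all remaining altered libraries.

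CTCFL itself cannot belong to such a set. It was at 0.3, 0.35 and 0.506 CPM in the Controls, against 1.64, 1.78 and 4.42 in CTCFL-OE and, for CTCFL-KD, 0, 0.0595 and 0. All libraries therefore lay on the side that their labels state, at low levels throughout. CTCF was measured at 77.4, 85.2 and 79.5 CPM across Control libraries, 77.9, 68.2 and 64.8 across those of CTCFL-OE and 54.2, 64 and 62.8 across those of CTCFL-KD. The pooled log2 difference of CTCF was -0.31 ± 0.14 (SE), and its adjusted p was 0.12 in the edgeR quasi-likelihood test (Benjamini-Hochberg).

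Some library properties moved with the groups. Mitochondrial transcripts took 6.52%, 6.31% and 6.16% of counts in the Controls, 7.4%, 12.4% and 14.9% after overexpression and 11.8%, 9.64% and 7.8% after knockdown. CTCFL-KD replicate 1 stood apart, with the smallest total and a TMM factor of 0.775. Against the other CTCFL-KD libraries its genes in the shortest of 5 classes of exon length were higher by a median of 0.77 on the log2 scale, and those in the longest class differed by -0.60. Without that library the members numbered 733 rising and 349 falling. The part of these properties in the results below was not tested.

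The cells carried the markers of their line. All 15 ovarian carcinoma identity markers passed the count filter, and their summed level was 6393, 6480 and 6399 CPM for Control, 5986, 5907 and 5716 after overexpression and 18779, 11420 and 10940 after knockdown. KRT8 was the most abundant of them. Of 8 fibroblast markers 2 passed the filter, with COL1A1 the most abundant, and their summed level was 33.1, 31.5 and 26.9 CPM for Control, 24.2, 36.7 and 43.8 after overexpression and 41.8, 38 and 36.3 after knockdown. Leukocyte markers summed to at most 4.51 CPM in any library, CD14 being the most abundant, and 2 of 5, CD3E and CD68, had at most 3 counts in every library. The 4 endothelial markers summed to between 8.05 CPM in Control replicate 3 and 19.9 in CTCFL-KD replicate 3. VWF was the most abundant endothelial marker over all libraries and KDR the most abundant in CTCFL-KD. COL3A1, a defining fibroblast gene, had no count in Control or CTCFL-OE and at most 0.722 CPM in CTCFL-KD. A part of other cell types in the results was not tested.

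Background on the programmes named below is as follows. Transforming growth factor beta (TGF-beta) signals through SMAD proteins to genes of the matrix and of cell adhesion, and NF-kB drives cytokine and chemokine genes. The AP-1 proteins, among them FOSL1, act downstream of the ERK kinase cascade on proteases such as the matrix metalloproteinases. ATF4 is the transcription factor of the integrated stress response, in which cells short of amino acids or under stress of the endoplasmic reticulum induce amino acid transporters and synthetases.

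Of 30 TGF-beta response genes tested, 12 were called lower and 2 higher, and 10 and 2 of these were members. The other 16 were not called. The list's median log2 change was -0.68 in the pooled contrast, against 0.05 over all genes tested. TGFBI, an extracellular matrix adhesion protein named for its induction by TGF-beta (chr5:136028988-136063818), was at 82.6, 87.2 and 86.4 CPM in Control, with 7.3, 11.7 and 26.2 after overexpression and 2.35, 2.26 and 1.37 after knockdown. All altered libraries thus lay far below all Controls, and the CTCFL-KD libraries lay below the CTCFL-OE ones. Its log2 change was -2.51 ± 0.39 (SE) in CTCFL-OE and -5.44 ± 0.47 in CTCFL-KD. PMEPA1, a membrane protein that restrains TGF-beta signalling (chr20:57648392-57711536), was at 188, 178 and 189 CPM in the Controls, against 24.2, 35.9 and 61.9 in CTCFL-OE and, for CTCFL-KD, 15.6, 13.1 and 15.4. NKILA, a noncoding RNA that neighbours PMEPA1 on the opposite strand, was at 8.81, 9.6 and 9.22 CPM across Control libraries, 2.14, 1.88 and 2.03 across those of CTCFL-OE and 0.992, 0.714 and 0.822 across those of CTCFL-KD. As the strand setting of the counting is not stated, the pair may share reads.

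ITGB6, a subunit of the integrin that releases active TGF-beta, was at 157, 158 and 160 CPM in Control, with 41.6, 23.8 and 40.3 after overexpression and 9.02, 9.99 and 13.5 after knockdown. TGM2, a transglutaminase that crosslinks matrix proteins, was at 514, 507 and 534 CPM in the Controls, against 143, 87.2 and 77.7 in CTCFL-OE and, for CTCFL-KD, 12.8, 15.3 and 18.5. In both genes the 3 groups were fully separated, with CTCFL-OE in the middle. Of 18 integrin subunits tested, 2 were called lower, ITGB6 and ITGB3, and both were members. ITGB3 was at 115, 117 and 125 CPM across Control libraries, 41.1, 38.6 and 70.2 across those of CTCFL-OE and 6.58, 3.21 and 5.37 across those of CTCFL-KD.

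**Figure D1:**
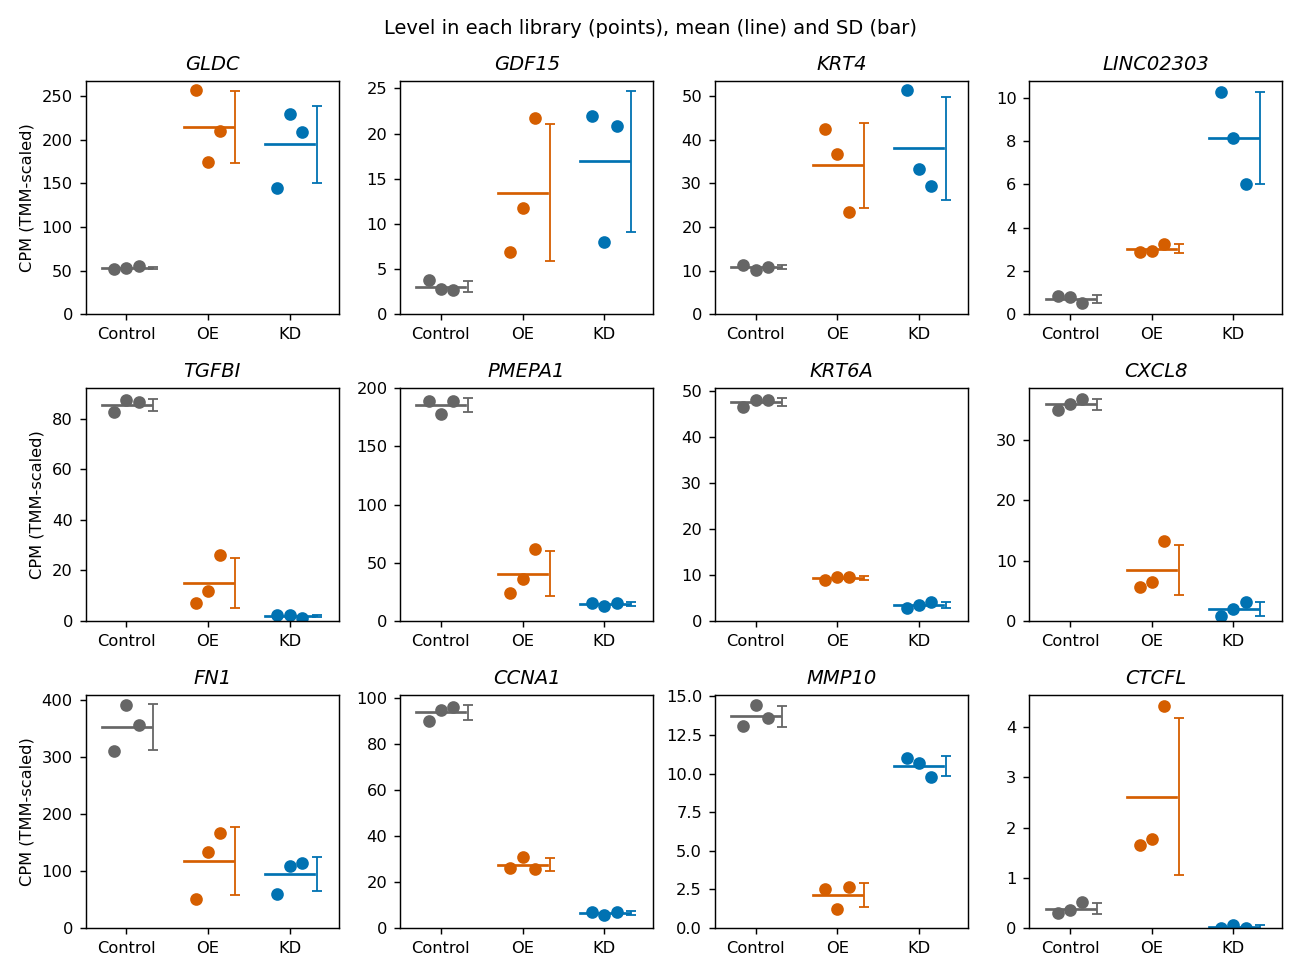
Level of 12 genes in each library, in TMM-scaled CPM on a linear axis, with points for the 3 libraries of Control, CTCFL-OE and CTCFL-KD, a line for the mean and a bar for the SD. In all panels but CTCFL the altered libraries lie on one side of Control, and in MMP10 the CTCFL-OE libraries lie farthest from it.

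FN1, the gene of fibronectin, fell with the altered groups overlapping each other. It was at 311, 390 and 356 CPM in Control, with 50.4, 133 and 166 after overexpression and 59.7, 109 and 114 after knockdown. The CTCFL-OE and CTCFL-KD libraries overlapped, and their log2 difference was 0.31 (95% interval -0.54 to 1.15).

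Among collagens, laminins and matrix glycoproteins, 14 of 35 tested were called higher and 4 lower, of which 9 and 2 were members. The list's median log2 change was 0.72. LAMA1, a laminin chain of basement membranes, was at 15.5, 19.4 and 15.3 CPM in the Controls, against 32.1, 34.7 and 38.5 in CTCFL-OE and, for CTCFL-KD, 85.3, 120 and 141. COL17A1, the collagen of hemidesmosomes, went the other way, at 16.3, 18.3 and 15.3 CPM across Control libraries, 8.03, 3.92 and 6.08 across those of CTCFL-OE and 1.71, 2.79 and 2.46 across those of CTCFL-KD. COL1A2 and COL5A2 were called in the pooled contrast but did not meet the rule. COL5A2 was at 8.71, 9.48 and 8.36 CPM in Control, with 7.62, 12.4 and 15.2 after overexpression and 64.4, 116 and 122 after knockdown, so the CTCFL-OE libraries overlapped Control. COL1A2 had no count in any Control library and 14.1, 14.2 and 13.5 CPM in CTCFL-KD.

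Matrix metalloproteinases, which cut matrix proteins, gave 4 called lower and 2 higher among 19 tested with their inhibitors, with 3 and 1 members. MMP16, one of those called higher, was no member, stayed under 1 CPM and lost its call in 11 of 18 alternative settings. These were DESeq2, no count filter, the replicate block with and without the length offset, and those without any 1 Control library or replicate 2 or 3 of CTCFL-OE or CTCFL-KD. MMP7, a small secreted enzyme, was at 20.1, 22.3 and 19.9 CPM in the Controls, against 3.24, 3.29 and 5.35 in CTCFL-OE and, for CTCFL-KD, 0.722, 0.0595 and 0.219. MMP1, an interstitial collagenase, was at 6.01, 6.49 and 4.61 CPM across Control libraries, 1.5, 0.836 and 1.66 across those of CTCFL-OE and 1.26, 0.892 and 0.767 across those of CTCFL-KD. Both fell below Control in all altered libraries, and for MMP1 the altered groups overlapped. MMP10 was named after its values were seen, since it moved more in CTCFL-OE. It was at 13.1, 14.5 and 13.6 CPM in Control, with 2.51, 1.25 and 2.64 after overexpression and 11, 10.7 and 9.75 after knockdown. The CTCFL-OE minus CTCFL-KD difference of MMP10 was -2.29 on the log2 scale (95% interval -2.86 to -1.73), given without a test since the gene was chosen for it.

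The promoters of MMP7, MMP10, CXCL8 and ASNS, the last of them an ATF4 target taken up further on, were picked for a motif match in their windows among members of these programmes. The windows of many other members with the same direction, such as TGFBI, PMEPA1 and ITGB6 among falling and GDF15 and STC2 among rising genes, held no match. They are RefSeq windows on GRCh38.p14 of 300 bases that span the gene start, 5′ to 3′ on the gene's strand, with motif matches in capitals.
MMP7 promoter, chr11:102530698-102530997, minus strand: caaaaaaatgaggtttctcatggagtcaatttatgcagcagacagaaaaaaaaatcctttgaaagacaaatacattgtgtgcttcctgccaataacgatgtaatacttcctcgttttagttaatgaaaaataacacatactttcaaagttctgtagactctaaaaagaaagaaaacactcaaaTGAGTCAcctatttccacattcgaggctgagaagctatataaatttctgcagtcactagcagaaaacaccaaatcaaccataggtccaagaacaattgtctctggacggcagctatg
MMP10 promoter, chr11:102780579-102780878, minus strand: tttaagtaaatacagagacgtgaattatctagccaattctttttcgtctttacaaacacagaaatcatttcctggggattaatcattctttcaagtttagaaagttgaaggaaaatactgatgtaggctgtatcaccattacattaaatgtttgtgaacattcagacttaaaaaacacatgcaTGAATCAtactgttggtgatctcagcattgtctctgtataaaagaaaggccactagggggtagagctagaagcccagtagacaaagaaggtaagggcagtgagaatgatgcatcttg
CXCL8 promoter, chr4:73740319-73740618, plus strand: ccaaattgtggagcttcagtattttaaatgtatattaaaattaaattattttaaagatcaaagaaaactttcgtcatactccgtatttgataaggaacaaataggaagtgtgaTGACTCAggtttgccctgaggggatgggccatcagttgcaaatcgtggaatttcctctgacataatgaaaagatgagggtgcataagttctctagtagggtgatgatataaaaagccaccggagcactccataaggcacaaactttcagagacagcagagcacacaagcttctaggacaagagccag
ASNS promoter, chr7:97872359-97872658, minus strand: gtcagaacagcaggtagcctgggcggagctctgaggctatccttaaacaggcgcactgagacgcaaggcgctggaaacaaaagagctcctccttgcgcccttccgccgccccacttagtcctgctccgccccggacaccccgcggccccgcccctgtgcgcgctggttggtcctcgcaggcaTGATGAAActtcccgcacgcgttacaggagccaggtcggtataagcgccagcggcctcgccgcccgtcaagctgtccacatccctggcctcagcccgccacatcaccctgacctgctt

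Motifs were searched on both strands in promoters matched by symbol, for 11958 of the genes tested. The AP-1 element TGANTCA, which is capitalised in MMP7, MMP10 and CXCL8, was in 4.75% of all matched promoters, in 23 of 434 rising members (5.3%) and in 26 of 217 falling members (12%). The C/EBP-ATF element TGATGNAA, capitalised in ASNS, was in 1.78% of all matched promoters, in 12 rising members (2.76%) and in 7 falling members (3.23%). The letters AGGGGGC, common to many CTCF and CTCFL sites, were in 19.9% of all, 21.7% of rising and 18.9% of falling members. A match is a description of letters only.

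Predicted CTCFL sites had been listed by the study for genes it chose on these same libraries, and some are given here for members of the ranking. They were matched to GRCh38 within 50 bases of the listed position.
SECTM1 site, chr17:82321611-82321623, minus strand: CCGCCAGGGGGCA
WSCD2 site, chr12:108194028-108194039, minus strand: CCAGCAGGGGGC
KRT4 site, chr12:52805131-52805142, minus strand: CCACCAGGAGGC
FREM1 site, chr9:14737373-14737384, minus strand: CCTACAGGGGGC
CYP24A1 site, chr20:54155451-54155460, plus strand: CCACCAGGGG
TGFBI site, chr5:136028925-136028933, minus strand: CGCCAGGGG
MMP7 site, chr11:102518906-102518917, minus strand: CAGCAGGAGGCA
FHOD3 site, chr18:36297254-36297264, minus strand: CACCAGGTGGC
The TGFBI site falls inside the promoter window of that gene. The others lie elsewhere, that of FHOD3 upstream of its window, that of WSCD2 inside the gene, those of SECTM1, FREM1 and CYP24A1 toward the 3′ end of the gene, and those of KRT4 and MMP7 past that end. Since the genes were chosen on these samples, the sites do not bear independently on the direction.

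Of 22 keratins and squamous epithelial genes tested, 10 were called lower and 1 higher, and all of these were members. The other 11 were not called. The list's median log2 change was -0.97. KRT6A, a keratin of activated and squamous epithelium (chr12:52487176-52493257), was at 46.6, 48.1 and 48 CPM in the Controls, against 8.94, 9.62 and 9.59 in CTCFL-OE and, for CTCFL-KD, 2.8, 3.45 and 4.16. The groups were separated with little spread inside each. KRT6B and KRT6C are near-identical copies of KRT6A, and reads could have been split among the 3 genes in counting. KRT4, a keratin of stratified mucosa, was the member that rose. It was at 11.3, 10.3 and 10.8 CPM across Control libraries, 42.4, 36.6 and 23.4 across those of CTCFL-OE and 51.4, 33.4 and 29.4 across those of CTCFL-KD. CTCFL-OE and CTCFL-KD overlapped for KRT4, with a log2 difference of -0.15 (95% interval -0.72 to 0.41).

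NF-kB targets, cytokines and chemokines gave 17 called lower and 1 higher among 30 tested, but only 8 and 1 were members. CXCL8, the neutrophil chemokine interleukin 8, was at 35, 35.9 and 36.9 CPM in Control, with 5.7, 6.43 and 13.3 after overexpression and 0.902, 2.08 and 3.12 after knockdown. IL12A, a subunit of interleukin 12, rose, at 2.2, 2.49 and 1.37 CPM in the Controls, against 5.52, 6.11 and 6.76 in CTCFL-OE and, for CTCFL-KD, 21.6, 18.9 and 22.8. TNF, called lower in the pooled contrast, was at 7.36, 6.76 and 7.39 CPM across Control libraries, 2.23, 4.7 and 9.28 across those of CTCFL-OE and 0.451, 0.535 and 0.712 across those of CTCFL-KD. Its CTCFL-OE libraries lay on both sides of Control, so it was no member. IL32 was likewise called lower with CTCFL-OE overlapping Control.

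Immediate early and ERK feedback genes had 6 called lower and 1 higher among 32 tested, and the 6 were members. FOSL1, an AP-1 subunit, was at 13.3, 9.99 and 11.6 CPM in Control, with 3.79, 5.43 and 8.42 after overexpression and 0.992, 0.595 and 0.657 after knockdown. CCND1, the gene of cyclin D1, was at 487, 461 and 503 CPM in the Controls, against 305, 276 and 281 in CTCFL-OE and, for CTCFL-KD, 91, 111 and 96.8. IER3 followed the same order of groups, and EGR3, the gene called higher, met the rule in no direction because CTCFL-KD overlapped Control. The call for EGR3 was lost when Control replicate 1, 2 or 3 was left out.

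Of 37 ATF4 and integrated stress response genes tested, 6 were called higher, and all 6 were members. The other 31 were not called. Of the whole list 12 genes had all altered libraries above Control and 2 had them below. The list's median log2 change was 0.44. INHBE, a hepatokine of the activin family (chr12:57452323-57459280), was at 0.401, 0.466 and 0.456 CPM across Control libraries, 0.593, 3.03 and 3.5 across those of CTCFL-OE and 4.42, 4.4 and 11.9 across those of CTCFL-KD. GDF15, a stress-induced cytokine (chr19:18374731-18389176), was at 3.76, 2.76 and 2.68 CPM in Control, with 6.89, 11.8 and 21.8 after overexpression and 22, 7.97 and 20.8 after knockdown. Replicates were widely spread in both altered groups, yet none reached down to Control. STC2, a secreted glycoprotein, was at 19.6, 18.7 and 19.3 CPM in the Controls, against 22.3, 56.2 and 58.5 in CTCFL-OE and, for CTCFL-KD, 123, 107 and 238. SLC7A11, the cystine transporter, was named after its values were seen, and was at 10, 11.3 and 11.6 CPM across Control libraries, 13.7, 32.3 and 45.5 across those of CTCFL-OE and 12.9, 24.4 and 43.3 across those of CTCFL-KD. In this gene the lowest altered libraries were close to Control, and its call was lost in 5 of 19 alternative settings. ASNS, asparagine synthetase, was also named after its values were seen, stayed under 3 CPM and lost its call in 8 of 18.

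GLDC, the glycine-cleaving enzyme of mitochondria (chr9:6532467-6645729), rose to like levels in both altered groups. It was at 52.1, 53.1 and 54.7 CPM in Control, with 257, 175 and 210 after overexpression and 145, 230 and 208 after knockdown. The altered groups overlapped and all their libraries were far above Control. The log2 change was 2.00 ± 0.22 (SE) in CTCFL-OE and 1.87 ± 0.22 in CTCFL-KD, with a difference of 0.14 (95% interval -0.33 to 0.61). A processed pseudogene of GLDC exists and could take a part of its reads. SLC38A4, an amino acid transporter, was at 2.1, 2.29 and 3.24 CPM across Control libraries, 9.12, 6.85 and 14.5 across those of CTCFL-OE and 8.75, 17.1 and 16 across those of CTCFL-KD.

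Lysosome and autophagy genes had 10 of 38 called higher, with 7 members. All altered libraries lay above Control for 12 genes of this list and below for 5. The median log2 change was 0.64. CTSF, a cathepsin protease, was at 23.9, 23.9 and 22.8 CPM in Control, with 30.1, 37.8 and 56.2 after overexpression and 223, 121 and 133 after knockdown. PSAP, the precursor of the saposins, was named after its values were seen, and was at 1e+03, 1033 and 1044 CPM in the Controls, against 1274, 1848 and 2601 in CTCFL-OE and, for CTCFL-KD, 2436, 2302 and 2598. Its call was lost in 5 of 19 alternative settings. CTSD also rose in all altered libraries, but CTCFL-KD replicate 1 at 816 CPM stood far above the other libraries, which reached at most 227. Its call was lost in 7 of 19 alternative settings, among them the one without that library. Without CTCFL-KD replicate 1 the list had 7 called higher.

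Mitochondrially encoded genes had 5 of 15 called higher, 4 of them members. MT-CO2, a subunit of cytochrome c oxidase, was at 4696, 4404 and 4369 CPM across Control libraries, 5712, 11050 and 13889 across those of CTCFL-OE and 17788, 8611 and 6627 across those of CTCFL-KD. Without CTCFL-KD replicate 1, 3 of the genes were called. The call for MT-CO2 was lost in 6 of 18 alternative settings, those for MT-ND3 and MT-CYB in 5 of 18 each and that for MT-RNR1 in 3 of 18. Each of these genes lost its call without Control replicate 1, 2 or 3. The rise of the mitochondrially encoded genes is the same measurement as the mitochondrial share given above.

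**Figure D2:**
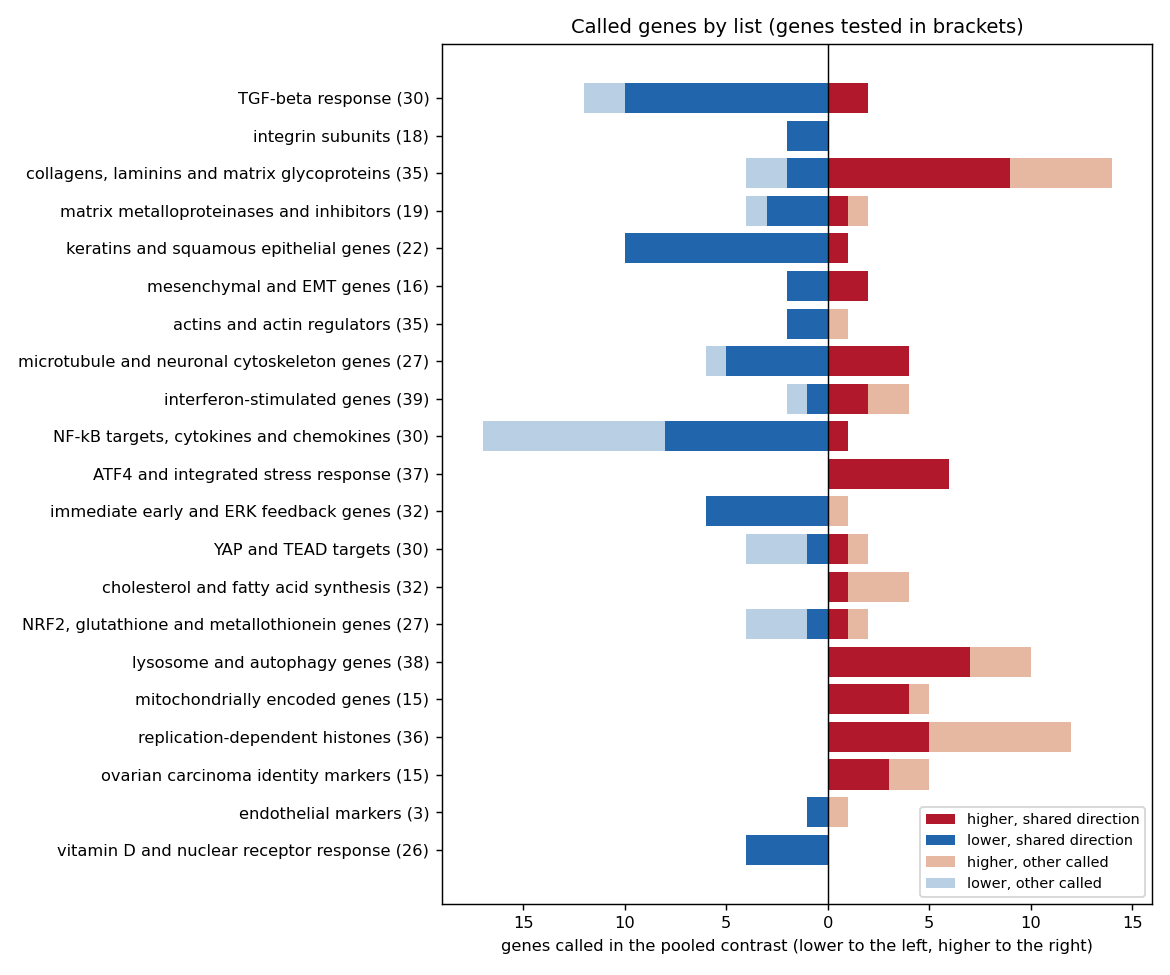
Genes called in the pooled contrast for each list with more than 1 such gene, with the number tested in brackets; bars to the left count genes called lower and bars to the right genes called higher, and the dark part of each bar counts members. TGF-beta response genes reach 12 lower, NF-kB targets 17 lower, and matrix genes 14 higher.

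Microtubule and neuronal cytoskeleton genes divided, with 6 called lower and 4 higher among 27, of which 5 and 4 were members. MAP2, a microtubule-binding protein of neurons, was at 166, 187 and 187 CPM in Control, with 43.6, 47.8 and 45.7 after overexpression and 3.52, 7.55 and 7.89 after knockdown. TUBA4A, an alpha tubulin, was at 481, 442 and 476 CPM in the Controls, against 194, 190 and 197 in CTCFL-OE and, for CTCFL-KD, 75.4, 34 and 34.5. KIF1A, a kinesin motor, rose, at 1.95, 1.94 and 1.77 CPM across Control libraries, 3.19, 6.01 and 6.88 across those of CTCFL-OE and 14.3, 15.5 and 18.6 across those of CTCFL-KD. Actins and actin regulators gave 2 called lower and 1 higher among 35, and without CTCFL-KD replicate 1 they gave 4 lower. ZYX, zyxin of focal adhesions, fell in all altered libraries, and ACTBL2, which resembles other actin genes closely, fell as well.

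Mesenchymal genes also divided, with 2 called higher and 2 lower among 16, all members. VIM, vimentin, was at 9.42, 8.78 and 8.61 CPM in Control, with 2.69, 1.78 and 2.03 after overexpression and 6.22, 3.45 and 4.33 after knockdown. Its CTCFL-OE libraries lay lower than its CTCFL-KD libraries, by -1.08 on the log2 scale (95% interval -1.66 to -0.51). SNAI1 was the other gene called lower, and TWIST1 and AXL were those called higher. The call for AXL was lost in 6 of 19 alternative settings.

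Vitamin D and nuclear receptor response genes gave 4 called lower of 26 tested, all members. CYP24A1, the enzyme that inactivates vitamin D (chr20:54153446-54173986), was at 19.7, 22.5 and 19.5 CPM in the Controls, against 1.73, 2.82 and 4.36 in CTCFL-OE and, for CTCFL-KD, 0, 0 and 0.11. In CTCFL-KD this is 2 counts over all libraries, so its fitted fold change there is not given. VDR, the vitamin D receptor, was at 65.1, 65.3 and 67.3 CPM across Control libraries, 49.4, 37.2 and 39.3 across those of CTCFL-OE and 20.8, 22.5 and 22.1 across those of CTCFL-KD. NPAS2 and BMAL1, partners in the circadian clock, fell too. NPAS2 was at 12.4, 10.9 and 12.5 CPM in Control, with 5.11, 4.44 and 4.79 after overexpression and 2.8, 4.4 and 3.12 after knockdown.

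Ovarian identity markers had 5 of 15 called higher, 3 of them members. Another 2, KRT7 and WT1, had all altered libraries below Control without being called. The list's median log2 change was -0.0455 in CTCFL-OE and 1.185 in CTCFL-KD. Without CTCFL-KD replicate 1 the list had 3 called higher and 1 lower, and MSLN, mesothelin, was among those that lost their call. FOLR1, the folate receptor, was at 14.9, 14.1 and 13.8 CPM in the Controls, against 25.9, 31.1 and 44.6 in CTCFL-OE and, for CTCFL-KD, 176, 60.2 and 60. MUC16, the gene of the CA125 antigen, was at 188, 283 and 195 CPM across Control libraries, 184, 359 and 247 across those of CTCFL-OE and 1008, 1984 and 1784 across those of CTCFL-KD, and was no member. Of 3 endothelial markers tested, PECAM1 was called lower as a member and KDR higher without meeting the rule (not called without Control replicate 3), and of 2 fibroblast markers COL1A2 alone was called.

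Further lists are given by their counts, to be read beside 6.79% called higher and 3.1% called lower over all genes tested. Members over all 17794 genes were 672 rising and 354 falling. The lists were not tested against these shares. Replication-dependent histones, whose copies are near-identical, had 12 of 36 called higher with 5 members. Their median log2 change was 0.07 in CTCFL-OE and 1.47 in CTCFL-KD. Interferon-stimulated genes had 4 called higher and 2 lower of 39, with 2 and 1 members, and the members called higher were MX1 and IFI6. All altered libraries lay above Control for 3 of these 39 genes and below for 4, and the list's median log2 change was -0.17. The call for IFI6 was lost in 6 of 19 alternative settings. Nucleic acid sensors had 1 of 13 called, ZBP1, which was no member. Of 11 cancer-testis genes tested, CCNA1, a meiotic cyclin, alone was called lower, at 90.2, 94.7 and 96.2 CPM in Control, with 26.1, 30.8 and 25.5 after overexpression and 7.04, 5.41 and 6.74 after knockdown. Without CTCFL-KD replicate 1 that list had 2 called lower. YAP and TEAD targets had 2 called higher and 4 lower of 30, with 1 member each way. The call for DLC1, the falling member, was lost in 2 of 18 alternative settings, those without Control replicate 2 or 3. Among the others called lower, FOXF2 lost its call in 4 of 18 and F3 in 3 of 19, and DOCK5 kept it in all 19. NRF2, glutathione and metallothionein genes had 2 higher and 4 lower of 27, again with 1 member each way, and without CTCFL-KD replicate 1 they had 2 lower. Cholesterol and fatty acid synthesis had 4 called higher of 32, with SREBF1 the member. Its log2 change was 0.48 in CTCFL-OE and 2.09 in CTCFL-KD. Its CTCFL-OE replicate 1, at 96 CPM, lay just above the highest Control at 93.3.

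Single members were found for hypoxia and glycolysis (VEGFA, of 33 tested), the unfolded protein response (XBP1, of 31) and p53 targets (GDF15, of 25). For XBP1 the log2 change was 0.57 in CTCFL-OE and 2.25 in CTCFL-KD. CTCF, cohesin and genes earlier proposed as CTCFL targets had 1 called of 24, FN1, and without CTCFL-KD replicate 1 also 2 called higher. None was a member among 23 nuclear noncoding RNAs, of which HOTAIR was called lower. Its call was lost in 4 of 18 alternative settings, those without Control replicate 1, 2 or 3 or CTCFL-KD replicate 3. By edgeR no gene was called among 41 of DNA replication, 36 of mitosis, 79 cytosolic ribosomal proteins and 13 of the small RNA machinery. At an unadjusted p under 0.05 the counts were 16, 18, 2 and 2, and DESeq2 called 0 in each list. In the DNA replication list 12 of 41 genes had all altered libraries below Control, against 12% of all genes tested. The median log2 change over the whole list was -0.28. The mitosis list had 0 of 36 genes below Control, with a median of -0.36. By group that median was 0.08 in CTCFL-OE and -0.82 in CTCFL-KD. Actins and actin regulators had 13 of 35 below Control, and immediate early and ERK feedback genes 12 of 32. These shares were not tested against each other. Of 2 leukocyte markers tested CD14 was called higher, at up to 3.07 CPM, and was no member. It was not called without Control replicate 2 or 3.

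The remaining genes at the head of the ranking came from no list. LINC02303, a noncoding RNA, was at 0.851, 0.816 and 0.506 CPM in the Controls, against 2.87, 2.93 and 3.26 in CTCFL-OE and, for CTCFL-KD, 10.3, 8.15 and 6.03. WSCD2 was at 5.06, 7.65 and 6.58 CPM across Control libraries, 21.8, 19.6 and 19.8 across those of CTCFL-OE and 35.3, 42.6 and 35.1 across those of CTCFL-KD. SMIM43 was at 2.65, 2.91 and 3.19 CPM in Control, with 13, 8.1 and 8.36 after overexpression and 10.7, 15.8 and 14 after knockdown. In all 3 the altered libraries stood clear of Control. RCAN2, a calcineurin regulator, was at 28.2, 25.4 and 26.3 CPM in the Controls, against 8.3, 5.33 and 7.74 in CTCFL-OE and, for CTCFL-KD, 3.97, 4.88 and 4.49. IL7R, the interleukin 7 receptor, was at 9.67, 8.94 and 9.17 CPM across Control libraries, 1.46, 1.31 and 4.92 across those of CTCFL-OE and 0.451, 0.773 and 0.986 across those of CTCFL-KD. FHOD3, a formin, and GASK1B fell in the same manner, and EDN2, SYT13, GGT6, SECTM1, IGSF10 and FREM1 rose.

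**Figure D3:**
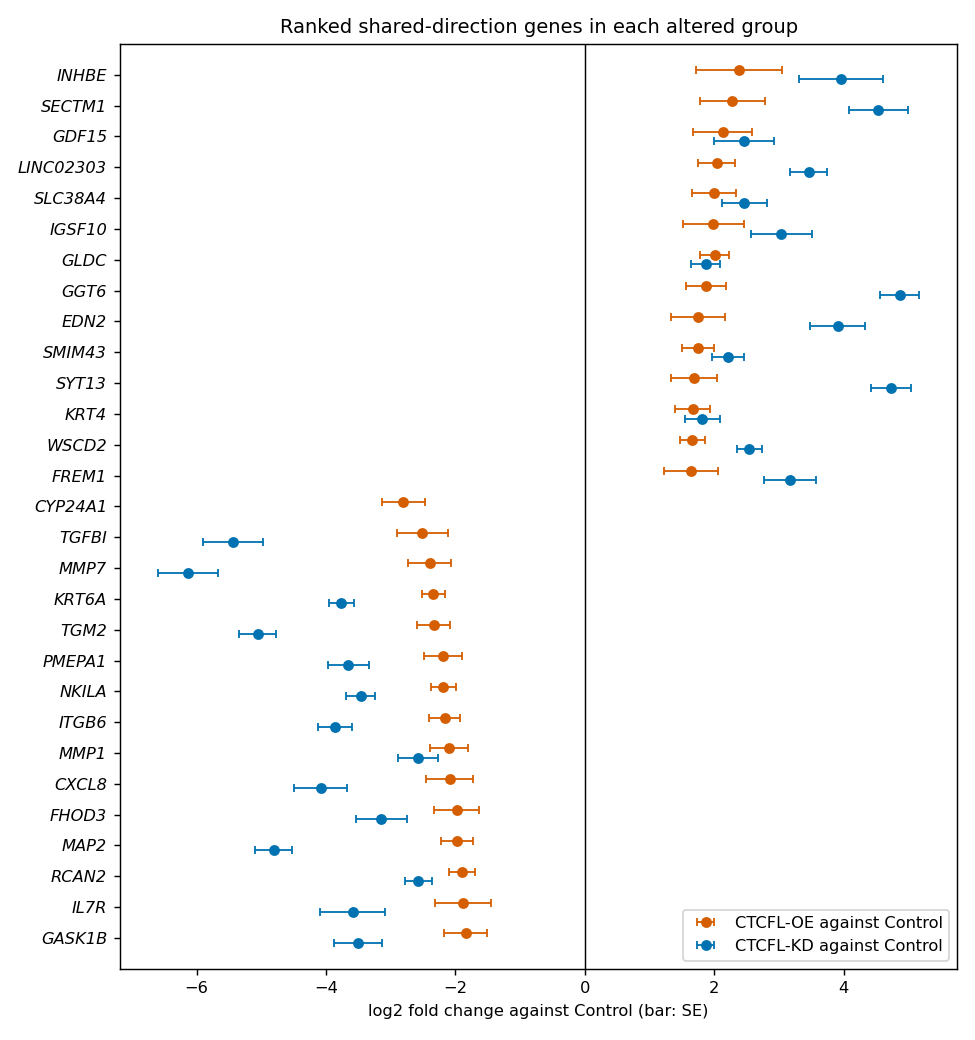
Log2 fold change against Control of rising and falling genes at the head of the ranking, in CTCFL-OE (orange) and CTCFL-KD (blue), with bars for the SE. CTCFL-KD lies farther from 0 than CTCFL-OE for all but GLDC; CYP24A1 is drawn for CTCFL-OE alone.

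The members' median log2 change was 0.95 in CTCFL-OE and 1.90 in CTCFL-KD for rising genes, and -0.86 and -1.98 for falling genes. Both contrasts share the Control libraries, so these are given side by side only. Judged by the study's own thresholds, 137 rising and 89 falling members were called in CTCFL-OE against Control, and 646 and 347 in CTCFL-KD against Control. Over all genes tested, members or not, 2.07% were called in either direction in the first of these contrasts and 23.2% in the second. The rule used these values.

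CTCFL-OE against CTCFL-KD uses no Control library, but the rule took the members from the values of these same altered libraries. The counts that follow therefore describe the members and carry no test of them as a set. In that contrast 496 of the 1026 members were called, and 17% of all genes tested. They were 327 of the 672 rising and 169 of the 354 falling members. The change was larger in CTCFL-KD in 326 of those 327 and in 167 of those 169. The exceptions, CSPG4, VIM and MMP10, were named after their values were seen. For the other 345 rising and 185 falling members the difference did not pass, which does not show that the groups acted alike.

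**Figure D4:**
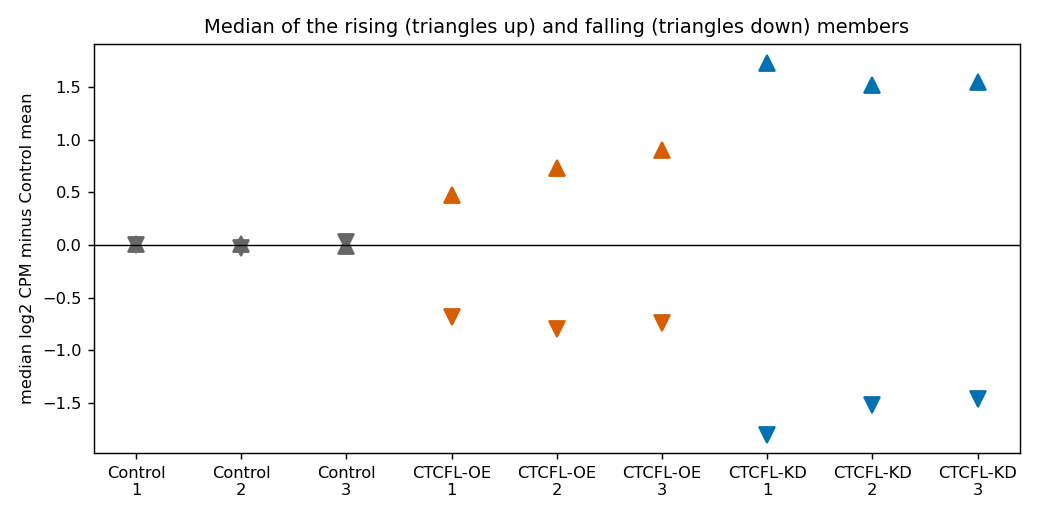
Median over members of log2 CPM minus the Control mean in each library, with upward triangles for the 672 rising and downward triangles for the 354 falling members. CTCFL-OE libraries lie between 0.47 and 0.90 for rising members, and CTCFL-KD libraries between 1.52 and 1.73.

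Near the rule's edge, KCNK2 lay just inside, at 12.1, 10.8 and 12 CPM in Control, with 17.8, 12.1 and 13.5 after overexpression and 33.4, 50.7 and 54.9 after knockdown. MIR4500HG was also just inside, at 0.451, 0.194 and 0.0506 CPM in the Controls, against 0.502, 0.627 and 1.04 in CTCFL-OE and, for CTCFL-KD, 0.451, 1.13 and 1.48. Its call was lost in 7 of 18 alternative settings, which were the replicate block and those without replicate 2 or 3 of any group. ZFP69 and ZNF844 were just outside, since CTCFL-OE replicate 2 had no count of either, as in Control. The call for ZFP69 was lost in 1 of 18 alternative settings, without CTCFL-OE replicate 1, and that for ZNF844 in 5, those without Control replicate 1, 2 or 3 or CTCFL-OE replicate 1 or 3. Of the 1760 called genes, 734 were no members, 536 of them higher and 198 lower.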

How the data were processed

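The deposited values were raw gene counts, which the authors had made from paired-end reads of stranded mRNA libraries. The study's methods describe trimming with Trimmomatic, alignment to GRCh38 with STAR and counting with featureCounts, and the submitters' processing notes also name kallisto. How strand and multi-mapping reads were handled, and which annotation release was counted, is not given in the sources used here. Each of the 9 sample files equalled its column in the series' count matrix. Gene symbols came from GENCODE, for 60419 of 60660 identifiers. For Control and CTCFL-OE, the methods describe technical replicates pooled within each biological replicate. For CTCFL-KD they refer only to the earlier, published knockdown.

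Counts were fitted with edgeR 4.0.16 in R 4.3.3 (TMM scaling, filterByExpr, robust quasi-likelihood, group as the only term) after a test on simulated counts. P-values were adjusted by Benjamini-Hochberg over the 17794 genes tested. Intervals are 95% and use the fit's standard errors. The members and the 34 gene lists were chosen with earlier results of these data known. Named genes are the 15 rising and 15 falling members with the largest smaller change of both altered groups, at 5 CPM or more in a group and with a symbol, and up to 4 called genes per list. Of this ranking 1 gene is not reported here. Alternatives covered scaling, filters, DESeq2 1.42.0, a replicate block, gene length and each library left out.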

Additional observations from a re-analysis of the deposited data

Results flagged for a closer look

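The change against Control differed between CTCFL-OE and CTCFL-KD, by the direct test of the altered groups against each other in edgeR (log2 difference beyond 1 and Benjamini-Hochberg adjusted p under 0.05), for 496 members. Among the 30 genes at the head of the ranking it differed for 18 by both conditions; WSCD2 and RCAN2 met the adjusted p alone. The members and the ranking were chosen from the values of these same libraries, partly for large changes, so these counts describe them and are no independent support. CTCFL-OE minus CTCFL-KD on the log2 scale was -2.26 for SECTM1, -1.42 for LINC02303, -3.0 for GGT6, -2.15 for EDN2, -3.04 for SYT13 and -1.53 for FREM1, all of which were higher in CTCFL-KD. It was 2.93 for TGFBI, 3.73 for MMP7, 1.42 for KRT6A, 2.72 for TGM2, 1.47 for PMEPA1 and 1.28 for NKILA. It was 1.70 for ITGB6, 2.00 for CXCL8, 2.83 for MAP2, 1.71 for IL7R and 1.66 for GASK1B. CYP24A1 had 163 counts over the CTCFL-OE libraries and 2 over those of CTCFL-KD, a ratio of 65.6 after library scaling (95% counting interval 17.9 to 546, without the spread between replicates).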

How the results depend on the processing

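Counts of called genes and of members stayed within 1.5 times their values in the report under RLE and upper-quartile scaling, without mitochondrial genes, in DESeq2, without robust estimation, without the count filter and with a gene length offset. Replicate numbers were not taken to pair the samples, since not all same-numbered libraries deviated together. Deviations of same-numbered Control and CTCFL-OE libraries correlated at -0.04, 0.22 and -0.05, and those of CTCFL-OE and CTCFL-KD at 0.0016, 0.078 and 0.020. Those of Control and CTCFL-KD correlated at 0.38, 0.22 and 0.27, each higher than with the other numbers between these groups, as a hint from the data and not from the design. With a replicate block 1147 genes were called higher and 555 lower, and the members were 641 and 355. CTSD, ASNS, MIR4500HG and MMP16 were not called with the block.
With at least 10 counts in every library 269 genes were called lower, with 194 falling members, and 859 were called higher. That filter leaves out genes that fell to a few counts in any library, such as CYP24A1 and MMP7. A test against a 2-fold change called 163 higher and 112 lower, with 121 and 92 members. With no fold threshold 2195 were called higher and 1849 lower, with 1111 and 1278 members. When group means took the place of altered libraries, 4770 genes lay above and 4562 below Control, with 1042 rising members, as the rule is then looser.
With each library left out in turn, genes called higher ran from 610 to 1409 and lower from 393 to 609. Genes above all Controls ran from 1650 to 2635, those below from 1960 to 3209. Rising members ran from 451 to 1106, falling from 291 to 459, and members that differed between the altered groups from 471 to 574. Each left-out library also leaves fewer libraries in which the rule must hold. The cause of these shifts was not tested. Of 110 named genes called, 81 kept their call in every setting that was run for single genes and in which they were tested, and none turned direction. The test against a 2-fold change, the one with no fold threshold and the use of group means were run for counts alone. COL1A1, which was not called, was at 0.0017 without CTCFL-OE replicate 1 and ran from -0.20 to 0.0017 when single libraries were left out. Depth limits the genes at a few counts, such as CTCFL and CYP24A1.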

Other observations

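Several genes were at or under 3 counts in all Control and CTCFL-OE libraries and at 5 CPM or more in all CTCFL-KD libraries. There were 9 of them, COL1A2, BCL11A, BMP3, CNTN1, KCNJ13, MAN1A1, OPRPN, PGAP4 and PTN. In the reverse, with CTCFL-KD at or under 3 counts and all other libraries at 5 CPM or more, there were 2, ENSG00000243981 and SLC1A6. These genes were named after their values were seen. No gene had Control and CTCFL-KD at or under 3 counts and CTCFL-OE at 5 CPM or more. GPX1, glutathione peroxidase of most cells, was at 0.25, 0.117 and 0.0506 CPM across Control libraries, 0.137, 0.157 and 0.184 across those of CTCFL-OE and 33.6, 14.3 and 14.8 across those of CTCFL-KD. FTH1, the ferritin heavy chain, was at 3236, 2796 and 3157 CPM in Control, with 3196, 2534 and 3044 after overexpression and 903, 606 and 562 after knockdown. Both genes have close copies elsewhere in the genome, and were called in the pooled contrast without being members. A difference between the experiments and an effect of the knockdown cannot be told apart.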
